A study of Rattus norvegicus with 10 samples.

Results

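Collagens are the main structural proteins of the extracellular matrix, and 10 of their genes were examined in rat white adipose tissue: the fibrillar collagen genes Col1a1, Col1a2, Col3a1, Col5a1 and Col5a2, the basement membrane collagen genes Col4a1 and Col4a2, and the type VI collagen genes Col6a1, Col6a2 and Col6a3. They were found on the array through its annotation, by taking every probe set, the group of short probes that reports on 1 transcript, that was annotated with exactly 1 of these gene symbols. This gave 17 probe sets of 31042 on the array that are not controls, and all 10 genes had at least 1. The samples came from 10 male rats of 13 weeks, 1 array per animal. The 5 noodle rats ate a diet in which instant noodle made up 30% of the weight and fat gave 26% of the energy, with the seasonings. The 5 control rats ate what the design text calls the equal diet with its seasonings left out. The treatment label of the control samples repeats the noodle text, so the control diet rests on the design text and the diet label alone. Feeding was paired between the diets, at roughly 60 g per kg and day with free access to water, and lasted 30 days by one label and 4 weeks by the other. The labels give neither strain nor fat depot.

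Type I collagen is a triple helix of chains from Col1a1 and Col1a2, type III of chains from Col3a1, and both assemble into the banded fibrils that give a tissue its tensile strength. Type V collagen, from Col5a1 and Col5a2, sits inside those fibrils and sets where and how thick they form. Type IV collagen, from Col4a1 and Col4a2, makes the sheet-like network of basement membranes, which in fat surround each adipocyte and each capillary. Type VI collagen, from Col6a1, Col6a2 and Col6a3, forms beaded microfilaments between the basement membrane and the fibrils, and is abundant in adipose tissue, where the end of the Col6a3 chain is released as the peptide endotrophin.

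Promoter sequences from RefSeq, build GRCr8, were available for 7 of the 10 genes, namely Col1a2, Col5a1, Col5a2, Col4a1, Col4a2, Col6a1 and Col6a3. Stretches of 2 of them are printed, because the type IV pair and the type I genes carry the pattern described further on. Col4a1 and Col4a2 lie head to head and are transcribed in opposite directions, and only 76 bases, at chr16:84885521-84885596, separate their annotated starts. The other printed stretch is the 250 bases before the start of Col1a2, at chr4:33518307-33518556. The motifs searched on either strand were the CCAAT box, the GC box spelled GGGCGG and the TATA box spelled TATAAA, whose matches are in capitals and do not overlap, and both are written 5′ to 3′ on the plus strand, which is the sense strand of Col4a1 and of Col1a2.
Col4a2-Col4a1 interval: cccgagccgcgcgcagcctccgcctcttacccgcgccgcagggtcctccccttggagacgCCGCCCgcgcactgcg
Col1a2 upstream: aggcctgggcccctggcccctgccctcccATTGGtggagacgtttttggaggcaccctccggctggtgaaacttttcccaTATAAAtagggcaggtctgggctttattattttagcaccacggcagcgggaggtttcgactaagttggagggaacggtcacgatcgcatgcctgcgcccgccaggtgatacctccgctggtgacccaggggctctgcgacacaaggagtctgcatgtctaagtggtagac
The interval between the type IV genes was 78.9% G or C and held 1 GC box, on the minus strand, 0 CCAAT boxes and 0 TATA boxes. With 76 bases it is shorter than a window of 250, so these counts cannot be set against those of Col1a2. In the 250 bases before their own starts, Col4a1 and Col4a2 each held 1 CCAAT box and 0 TATA boxes, with 1 and 2 GC boxes. The Col1a2 stretch was 58.4% G or C and held 1 CCAAT box, on the minus strand, 1 TATA box and 0 GC boxes. Among all 33469 promoter windows of 250 bases in the same table, 34.0% held a CCAAT box, 30.5% a GC box and 12.9% a TATA box, so each of these matches is common, and a match is a description of letters, not of a bound factor. Of the other members, Col3a1 and Col5a2 are direct neighbours on 1 chromosome, as are Col6a1 and Col6a2 on another, with 0 protein-coding genes between them in the same assembly.

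All 10 collagen genes were expressed at high levels. The value of a probe set is the authors' deposited value, taken as log2, and 15 of the 17 probe sets had means between 9.16 (Col5a1) and 12.7 (Col3a1), which placed each of them above at least 95.3% of the probe sets of the array. These are levels of single probe sets, whose probes bind with different strength, so the order of the genes among themselves cannot be read from them. Most values in this table hardly vary between animals. A probe set was called flat if its SD over the 10 arrays was 0.01 or less, and variable otherwise, and 8.4% of all probe sets were variable. Among the collagen probe sets 14 of 17, or 82.4%, were variable, and among all single-gene probe sets with a mean of 9 or more 41.5% were. All 9 fibrillar probe sets were variable. The 3 flat ones were 1 of the 2 for Col4a1 (at a mean of 11.66), 1 of the 2 for Col6a2 (at 6.79) and 1 of the 2 for Col6a3 (at 6.72 to 6.73). No source at hand says why they are flat, and their levels are given here, with their differences named below.

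The tissue label was set against marker genes. Adipocyte markers (14 measured) stood at a median of 12.1. A brain list was also measured, since the RNA protocol mentions brain, and its 11 measured genes stood at a median of 5.75, below every array median (6.17 to 6.18). The defining brain genes lay between 5.34 for Gad1 and 8.76 for Mbp. The 11 measured fibroblast and preadipocyte markers, for the cells known to make most fibrillar collagen in fat, had a median of 9.56, and the 9 measured endothelial markers one of 8.51. In bulk tissue, fewer cells of a type and less RNA per cell cannot be told apart.

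The diets did not separate any of the collagen genes. Noodle minus control was tested with limma on all 31042 probe sets, with Benjamini-Hochberg adjustment over all of them, and 0 of the 14 variable collagen probe sets reached an adjusted p of 0.05, where 0% of all probe sets did. At an unadjusted p under 0.05 the collagens also counted 0 of 14, against 8.13% of the 2607 variable probe sets (2.8% higher and 5.33% lower in noodle rats) and 4.77% of all probe sets. The 14 differences ran from -0.19 to 0.13 log2 units, 4 of them positive and 10 negative, with a median of -0.02, and the median over all variable probe sets was -0.01. These signs are not stable: without control animal 14 there were 8 positive and 6 negative, and with the 3-prime to 5-prime difference of control probe sets, a sign of RNA quality, as a covariate 1 positive and 13 negative, from -0.48 to 0.12, with 0 past an adjusted p of 0.05 in either. Their median size without regard to sign was 0.05, against 0.09 for all variable probe sets. Diet accounted for a median of 3.3% of the variance of a collagen probe set over the 10 animals, and for 7.64% over all variable probe sets. In 0 of the 14 did the groups fail to overlap, against 0.959% of the variable probe sets.

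**Figure D1:**
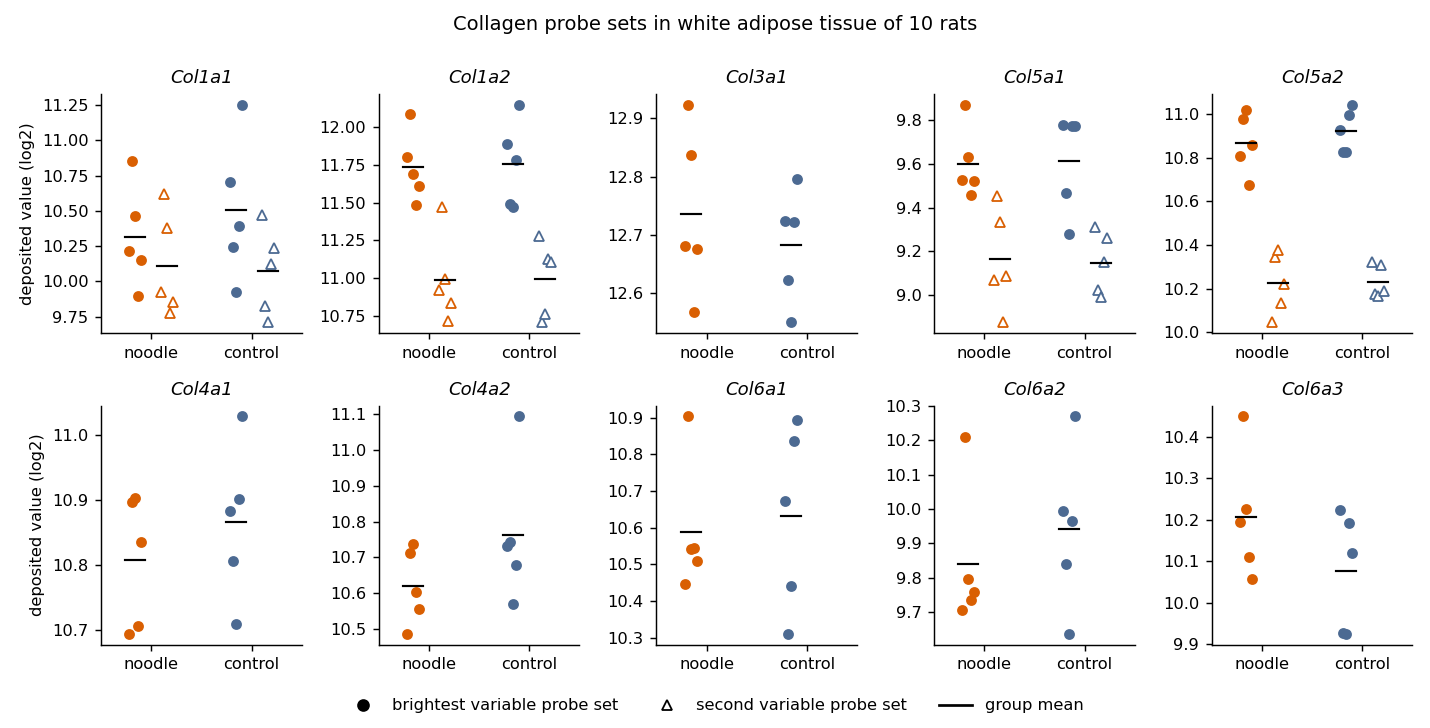
Deposited log2 values of the 14 variable collagen probe sets in the 5 noodle and the 5 control animals, 1 panel per gene, each point 1 animal and each bar a group mean, with filled circles for the brighter probe set of a gene and open triangles for the second. In every panel the noodle and control points overlap, and each y axis has its own range.

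Type I collagen did not separate the diets. Col1a1, the gene of the pro-alpha1(I) chain, stood on its brighter probe set at 10.22, 10.85, 10.46, 9.90 and 10.15 in noodle animals 1, 4, 7, 10 and 13, against 10.70, 10.25, 9.92, 10.39 and 11.25 in control animals 2, 5, 8, 11 and 14. Control animal 14 was the highest of all, noodle animal 10 the lowest, and the groups overlapped over most of their range. The means were 10.32 ± 0.36 in noodle rats and 10.50 ± 0.50 in control rats (SD, n = 5 each), a difference of -0.19 ± 0.27 (SE) with an interval of -0.80 to 0.42 (95%, limma adjusted p = 0.993). Without control animal 14 the difference was -0.001, and with the 3-prime to 5-prime covariate it was -0.48 ± 0.33.

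The second Col1a1 probe set stood at 9.93, 10.62, 10.38, 9.78 and 9.85 in the noodle animals, against 10.47, 9.82, 9.71, 10.13 and 10.23 in the controls. Here noodle animal 4 was the highest and control animal 14 only the fourth. The difference was 0.04 ± 0.21, opposite in sign to that of the brighter probe set and within its interval, and it turned to -0.09 without noodle animal 4. The 2 probe sets of Col1a1 correlated over the 10 animals with r = 0.785 (Spearman rho = 0.879, permutation p = 0.00651 and 0.00152, adjusted p = 0.00868 and 0.00304 over the 4 genes with 2 variable probe sets) and with r = 0.955 without control animal 14, where the brighter one read 0.70 log2 units higher relative to the second than on average.

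Col1a2, the gene of the pro-alpha2(I) chain, stood on its brighter probe set at 11.80, 12.08, 11.69, 11.49 and 11.61 in the noodle animals, against 11.89, 11.49, 11.47, 11.78 and 12.15 in the controls. As with Col1a1, noodle animal 4 and control animal 14 were the 2 highest. The difference was -0.02 ± 0.16 there and -0.01 ± 0.17 on its second probe set, on which control animal 14, at 11.11, was not the highest control. Col3a1, the gene of the type III chain, stood at 12.68, 12.92, 12.84, 12.57 and 12.68 in the noodle animals, against 12.72, 12.62, 12.55, 12.72 and 12.80 in the controls. Its difference was 0.05 ± 0.07, with an interval of -0.12 to 0.22. It spanned 0.37 log2 units over the 10 animals, against 1.35 for the brighter Col1a1 probe set, sizes that cannot be compared as changes in RNA because the probe sets differ.

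Type V collagen showed the same lack of separation. Col5a1 ranged from 9.46 to 9.87 in noodle rats and from 9.28 to 9.78 in control rats on its brighter probe set, with differences of -0.01 ± 0.12 there and 0.02 ± 0.12 on the second. Col5a2 ranged from 10.68 to 11.02 in noodle rats and from 10.83 to 11.04 in control rats, with differences of -0.06 ± 0.07 and, on the second, -0.01 ± 0.07. Of the 4 fibrillar genes with 2 variable probe sets, Col1a1 and Col5a1 differed in sign between them.

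For type IV collagen the noodle mean was lower in both genes, within the spread of the animals. Col4a1, the alpha1(IV) gene, stood at 10.69, 10.90, 10.90, 10.71 and 10.84 in the noodle animals, against 10.88, 10.81, 10.71, 10.90 and 11.03 in the controls, a difference of -0.06 ± 0.07. Col4a2, the alpha2(IV) gene, stood at 10.49, 10.71, 10.74, 10.60 and 10.56 in the noodle animals, against 10.73, 10.74, 10.57, 10.68 and 11.09 in the controls. Its difference of -0.14 ± 0.10 had an interval of -0.36 to 0.08 and an unadjusted p of 0.171 (limma, adjusted p = 0.993), the smallest of the 14. Control animal 14 was the highest animal, and without that animal the difference was -0.06. With the 3-prime to 5-prime covariate the differences were -0.14 ± 0.08 for Col4a1 and -0.24 ± 0.12 for Col4a2 (limma, adjusted p = 0.769 and 0.76).

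Among the type VI genes, Col6a3 was higher and the others lower in the mean of the noodle rats, again within the spread. Col6a3, the gene of the long alpha3(VI) chain, stood at 10.19, 10.45, 10.23, 10.11 and 10.06 in the noodle animals, against 10.22, 9.93, 9.93, 10.19 and 10.12 in the controls, a difference of 0.13 ± 0.09 with an interval of -0.08 to 0.33 (limma, adjusted p = 0.993). It was 0.07 without noodle animal 4. Its flat probe set differed by 0.003, with the same sign and an unadjusted p of 0.0079 (limma, adjusted p = 0.993), where 4.46% of the flat probe sets had an unadjusted p under 0.05. The flat probe set of Col4a1 differed by 0.000109, opposite in sign to its variable one, and that of Col6a2 by -1.04e-05 (limma, unadjusted p = 0.342 and 0.932). Differences of this size in flat probe sets were not read as changes. Col6a1 stood at 10.45, 10.90, 10.54, 10.54 and 10.51 in the noodle animals, against 10.67, 10.31, 10.44, 10.84 and 10.89 in the controls, and noodle animal 4 was far above the other noodle rats. Col6a2 repeated that, at 9.71, 10.21, 9.80, 9.74 and 9.76 in the noodle animals, against 9.99, 9.84, 9.64, 9.96 and 10.27 in the controls. The differences were -0.04 ± 0.13 for Col6a1 (0.02 without control animal 14) and -0.10 ± 0.13 for Col6a2 (-0.02 without control animal 14 and -0.19 without noodle animal 4).

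**Figure D2:**
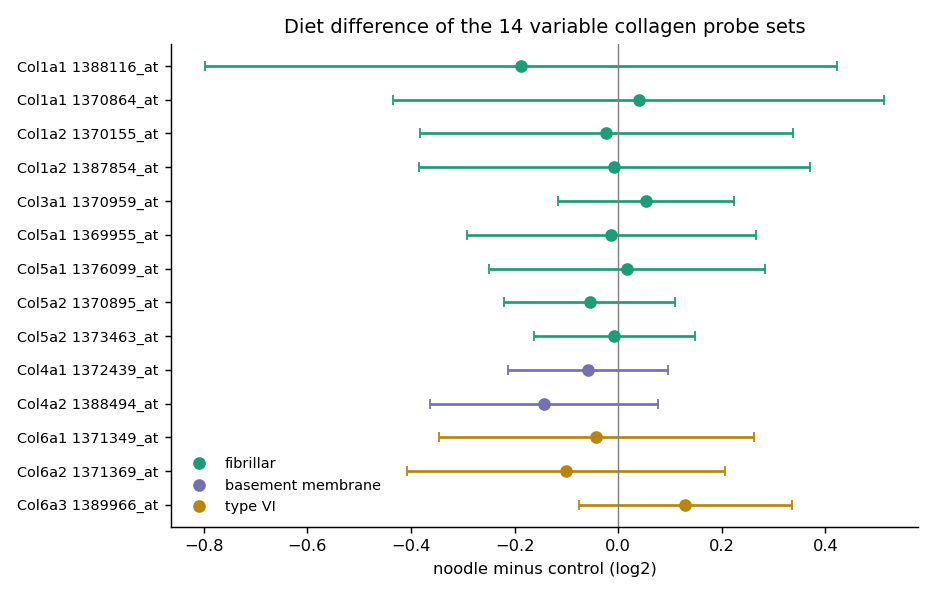
Noodle minus control difference in log2 units for each of the 14 variable collagen probe sets, with the 95% interval from limma as a bar and the class as colour. Every interval includes 0, and the widest belong to the Col1a1 probe sets.

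The classes were compared by the deviation of each gene from its own mean over the 10 animals, averaged over the genes of a class, with the brightest variable probe set standing for a gene. Fibrillar collagens deviated by -0.07, 0.27, 0.05, -0.26 and -0.11 log2 units in noodle animals 1, 4, 7, 10 and 13, against 0.13, -0.14, -0.26, 0.06 and 0.33 in control animals 2, 5, 8, 11 and 14. Type IV deviated by -0.17, 0.04, 0.06, -0.11 and -0.07 in the noodle animals, against 0.04, 0.01, -0.12, 0.03 and 0.30 in the controls. Type VI deviated by -0.10, 0.31, -0.03, -0.09 and -0.11 in the noodle animals, against 0.08, -0.19, -0.21, 0.12 and 0.21 in the controls. Noodle animal 4 was thus high in fibrillar and type VI collagens and near the mean in type IV, and control animal 14 was high in all 3 classes. The class means of noodle minus control were -0.05 for fibrillar, -0.10 for type IV and -0.004 for type VI collagens. Each was smaller in size than the SD within the control group (0.23, 0.15 and 0.19). Within the noodle group the SDs were 0.196, 0.098 and 0.175, and the type IV difference of -0.101 was slightly larger in size than its SD. Without control animal 14 the 3 class differences were 0.03, -0.04 and 0.05, and without noodle animal 4 they were -0.12, -0.12 and -0.08. The fibrillar and type VI signs thus rest on single animals. The type IV value stayed negative with any single animal left out, from -0.145 to -0.0396. Type IV minus fibrillar, which cancels what the 2 classes share in an animal, was -0.03 ± 0.14 in noodle rats and 0.03 ± 0.11 in control rats (SD, n = 5 each), ranging from -0.23 to 0.15 and from -0.09 to 0.15. These class values have no test, because the genes were chosen with results of these data known.

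**Figure D3:**
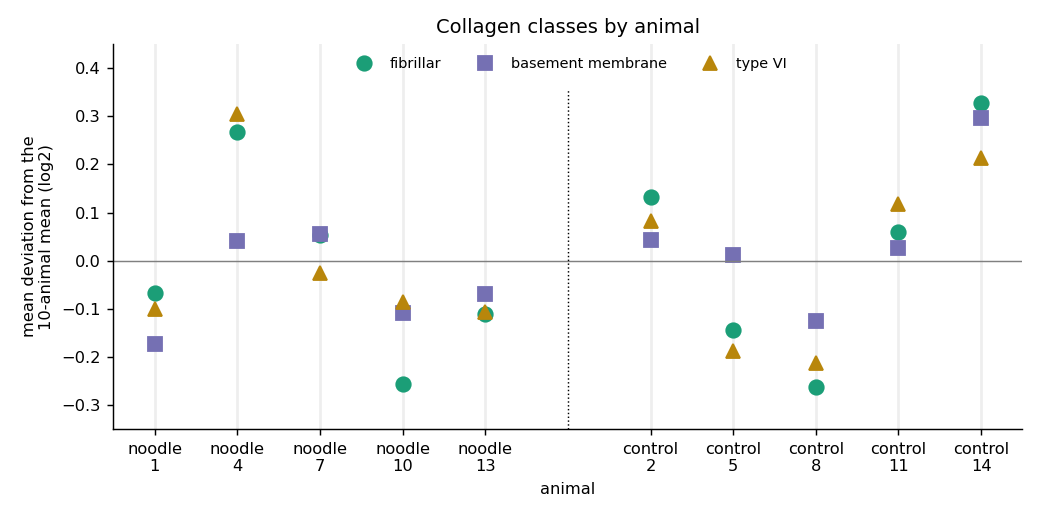
Mean deviation of the fibrillar, basement membrane (type IV) and type VI collagen genes from their 10-animal mean, in log2 units, for each noodle and each control animal. In noodle animal 4 the fibrillar and type VI values are 0.27 and 0.31 and the type IV value is 0.04, while in control animal 14 all 3 are between 0.21 and 0.33.

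Across animals the collagen genes varied together. All 45 pairs of the 10 genes had a positive correlation over the 10 animals, 1 of them (Col4a2 with Col6a3) only while control animal 8 was included, with a median r of 0.79, and 36 of them had an adjusted p under 0.05 for Pearson's r and 26 for Spearman's rho (permutation tests with 100000 resamples, adjusted over the 45 pairs). Over all pairs of the 1786 genes with a variable probe set the median r was 0.04, and 4.62% of those pairs had an r of at least 0.7, against 68.9% of the collagen pairs. The pairs share animals and arrays, so they are not independent of each other. With each diet group's mean taken out, the medians within and between the classes moved by less than their jackknife error over the animals.

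Within the fibrillar class all 10 pairs passed for r and 8 for rho, with r between 0.71 and 0.92. Col1a1 and Col1a2, whose chains form 1 molecule, had an r of 0.925 (rho = 0.879, permutation p = 0.00011 and 0.0017, adjusted p = 0.00247 and 0.0101), and r was 0.815 without control animal 14 and noodle animal 4, the 2 animals farthest from the median of Col1a1. Col3a1 and its neighbour Col5a2 had an r of 0.809 (rho = 0.77, permutation p = 0.00461 and 0.0126, adjusted p = 0.0109 and 0.0333), and r was 0.929 without noodle animal 4 and control animal 8.

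Fibrillar and type VI genes correlated with a median r of 0.76 over 15 pairs, of which 13 passed for r and 11 for rho. The pair with the highest r of all 45 was Col1a1 and Col6a2, at r = 0.935 (rho = 0.903, permutation p = 0.0001 and 0.00088, adjusted p = 0.00247 and 0.00792), and r was 0.827 without control animal 14 and noodle animal 4. On the second Col1a1 probe set, r with Col6a2 was 0.74. Col6a3 went less with the others of its class, with an r of 0.687 to Col6a1 and 0.556 to Col6a2 (rho = 0.636 and 0.479, permutation p = 0.0252 and 0.0945 for r and 0.0528 and 0.167 for rho, adjusted p = 0.0344 and 0.109 for r). Leaving out the 2 farthest animals gave 0.67 and 0.477. With each diet mean taken out, these r values were 0.823 and 0.765. They were 0.813 and 0.751 without control animal 14 alone, and 0.547 and 0.315 without noodle animal 4 alone. Among the brightest variable probe sets, Col6a3 had its highest r with Col3a1, at 0.826 (rho = 0.879, permutation p = 0.00361 and 0.0018, adjusted p = 0.00956 and 0.0101). That r was 0.555 without noodle animal 4 and control animal 8. With the second probe sets of Col1a1 and Col1a2 the r of Col6a3 was 0.847 and 0.86, against 0.53 and 0.714 with the brighter ones. Whether these r values differ from each other was not tested.

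The type IV pair, which shares the short interval printed above, had an r of 0.841 (rho = 0.697, permutation p = 0.00185 and 0.0309, adjusted p = 0.00692 for r and 0.0515 for rho). It was 0.648 without control animal 14 and noodle animal 1, the 2 farthest on Col4a1. Fibrillar genes with type IV had a median r of 0.73 over 10 pairs, 7 passing for r and 4 for rho, and this value depended on the probe set. With the second probe set of each of the 4 fibrillar genes that have 2, the median was 0.55. Col4a2 and Col1a1 had an r of 0.833 (rho = 0.709, permutation p = 0.00325 and 0.027, adjusted p = 0.00914 and 0.0472) on the brighter Col1a1 probe set. On the second it was 0.459 (rho = 0.43, permutation p = 0.182 and 0.22, adjusted p = 0.204 and 0.264 over the 18 relations of the type IV genes with each fibrillar probe set). Without control animal 14 the 2 values of r became 0.639 and 0.621. Col4a2 and Col6a3 had the lowest r of the 45 pairs, 0.0969 (rho = 0.188, permutation p = 0.779 and 0.607, adjusted p the same), and 0.436 without control animal 14 and noodle animal 1. It was -0.03 without control animal 8 and 0.373 with each diet mean taken out.

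**Figure D4:**
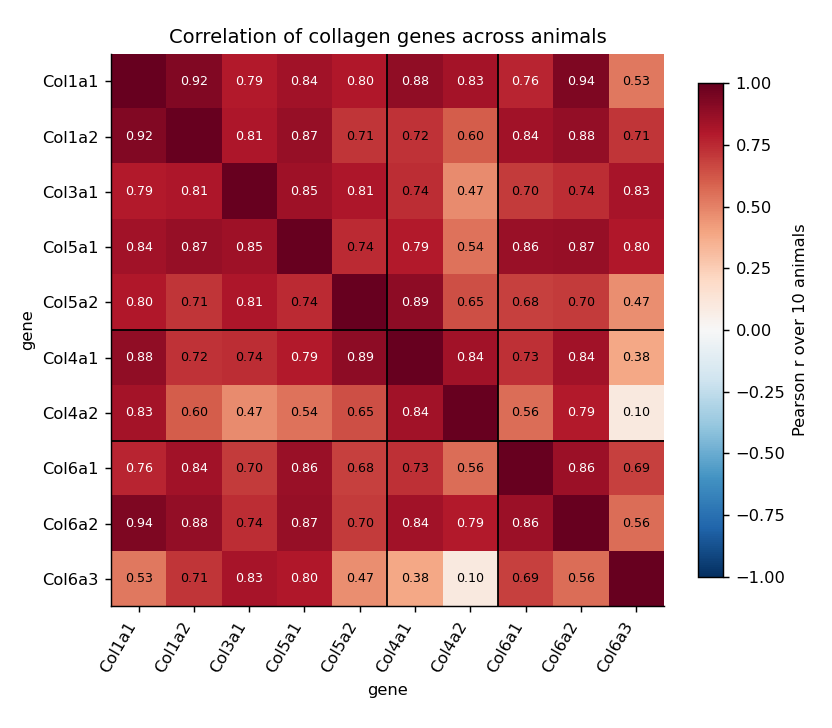
Pearson correlation over the 10 animals for each pair of the 10 collagen genes, each gene by its brightest variable probe set, with lines between the fibrillar, type IV and type VI classes. All values are positive, the highest being 0.94 for Col1a1 with Col6a2 and the lowest 0.10 for Col4a2 with Col6a3.

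**Figure D5:**
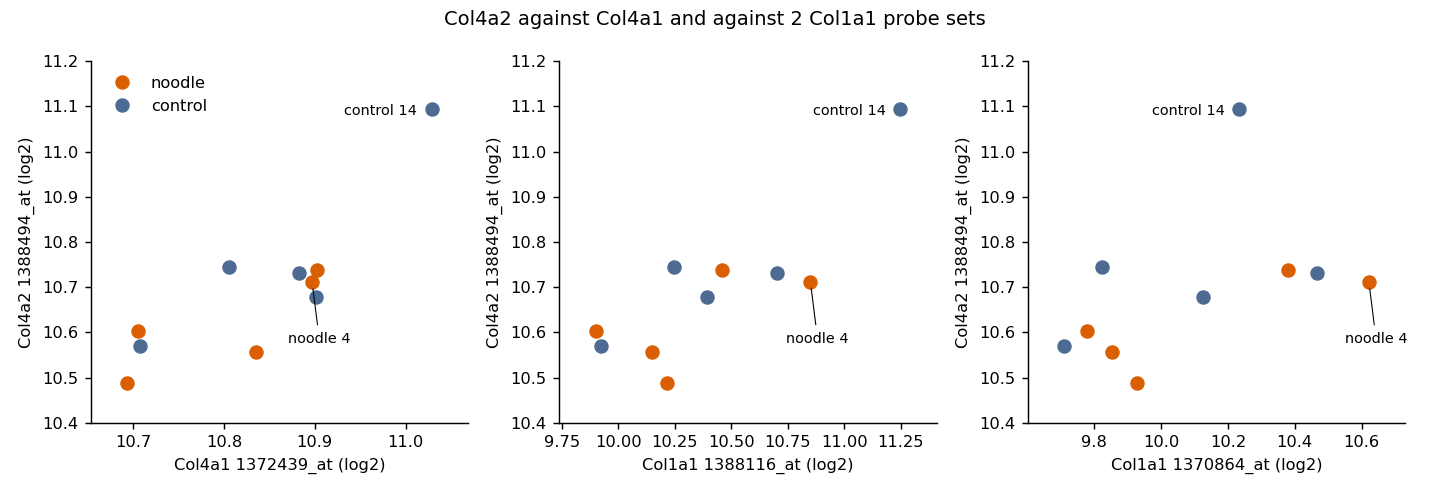
Col4a2 (log2) against Col4a1 and against each of the 2 Col1a1 probe sets (log2), each point 1 animal. Control animal 14 is at the top in all 3 panels, at the right end with Col4a1 and the brighter Col1a1 probe set, and in the upper part of the range on the second Col1a1 probe set, where noodle animal 4 is farthest right.

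Measures of other cell types were set beside these values. The fibroblast and preadipocyte markers, 8 of 11 with variable probe sets, deviated on average between -0.14 and 0.22 in noodle rats and between -0.24 and 0.20 in control rats, with the highest values in noodle animal 4 and control animal 14. Their mean had an r of 0.691 with Col1a1 (rho = 0.612, permutation p = 0.026 and 0.0659, adjusted p = 0.275 for r over 21 relations), which was 0.367 without those 2 animals. The marker list includes Dcn, Lum, Mfap5 and Fbn1, which are also among the fibril-binding matrix proteins taken up below. Their r with Col1a1 was 0.645, 0.633, 0.677 and 0.837, and the part of this overlap in the marker mean was not tested. Endothelial markers, of the cells that line capillaries, had an r of 0.183 with Col4a2 (rho = 0.321, permutation p = 0.619 and 0.369, adjusted p = 0.722 for r, and r = 0.202 without noodle animal 4 and control animal 2). Smooth muscle and pericyte markers had an r of 0.662 with Col1a1 (rho = 0.515, permutation p = 0.0375 and 0.132, adjusted p = 0.275 for r, and r = 0.678 without control animal 2 and noodle animal 4). The 3-prime to 5-prime difference was 0.84 ± 0.07 in noodle rats and 0.95 ± 0.08 in control rats (SD, n = 5 each, two-sided exact permutation p = 0.0476), and its r with Col1a1 was -0.193 (rho = 0.0182, permutation p = 0.591 and 0.974, adjusted p = 0.722 for r, and r = -0.353 without control animal 5 and noodle animal 13). Control animal 14 stood at 0.82, within the noodle range of 0.75 to 0.93, while the other controls stood at 0.95 to 1.06. Leaving out this animal and adding the covariate are thus not separate checks. None of the 21 relations of 6 marker lists and RNA quality with Col1a1, Col4a2 and Col6a3 passed after adjustment, and the part of cell composition in the shared variation was not tested further.

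The genes that process and bind collagen were taken from 8 lists. In all, 64 genes had a brightest probe set that was variable, counted once per list entry. In limma 0 of them passed an adjusted p of 0.05. At an unadjusted p under 0.05 there were 4 of 64 (6.25%), against 8.13% of all variable probe sets: Lox, Tinagl1, Timp3 and Ltbp2, 1 in each of 4 lists. In collagen processing and crosslinking all 6 variable genes had a lower mean in noodle rats. Lox, the lysyl oxidase that crosslinks fibrils, stood at 7.65 ± 0.12 in noodle rats and 8.10 ± 0.42 in control rats, a difference of -0.44 ± 0.19 (SE, n = 5 per group, limma adjusted p = 0.993), which was -0.31 without control animal 14 and -0.80 ± 0.16 with the 3-prime to 5-prime covariate (limma, adjusted p = 0.735). Bmp1, the protease that trims the end of procollagen, differed by -0.20 ± 0.13 (-0.10 without control animal 14 and -0.40 ± 0.13 with the covariate), Tgm2, a transglutaminase, by -0.16 ± 0.15 (-0.01 without control animal 14), and Loxl1 by -0.13 ± 0.17 (-0.03 without noodle animal 10). Among TGF-beta and collagen gene control, 8 of 8 variable genes were lower, with Ccn2, known as connective tissue growth factor, at -0.41 ± 0.19, Ccn1 at -0.28 ± 0.18, Ccn5 at -0.23 ± 0.18 (-0.10 without control animal 14) and Ltbp2 at -0.19 ± 0.07. Genes of a list share their animals, so a shared sign is not a count of independent results. All variable probe sets leaned the same way, with a median difference of -0.01. Of them 5.33% were lower and 2.8% higher at an unadjusted p under 0.05 in limma.

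Of the other collagens, 2 of 9 variable genes were higher and 7 lower. Col4a5, another type IV chain, stood at 7.64 ± 0.31 in noodle rats and 8.04 ± 0.37 in control rats, a difference of -0.41 ± 0.21 that was -0.25 without control animal 14. Col12a1 differed by -0.28 ± 0.14, Col14a1 by -0.12 ± 0.12 and Col15a1 by 0.06 ± 0.06 (0.005 without control animal 14). Of the 10 variable basement membrane partners, 4 were higher and 6 lower. The member with the smallest p of all lists was Tinagl1, a basement membrane glycoprotein, at 9.22 ± 0.08 in noodle rats and 9.49 ± 0.12 in control rats, with 5 of 5 noodle rats below every control (-0.27 ± 0.06, limma adjusted p = 0.96). It was the 1 gene of the 64 (1.56%) whose groups did not overlap, against 0.959% of all variable probe sets. The laminin genes Lama2, Lama4 and Lamb2 differed by -0.08 ± 0.10 (-0.003 without control animal 14), 0.03 ± 0.04 (0.007 without noodle animal 4) and -0.03 ± 0.03.

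In collagen breakdown 6 of 8 variable genes were higher and 2 lower. Timp3, an inhibitor of matrix proteases, differed by -0.26 ± 0.10, Timp2 by -0.09 ± 0.12 (-0.001 without control animal 14), the mannose receptor Mrc1 by 0.20 ± 0.15 (0.12 without noodle animal 4) and the collagen-cleaving cathepsin Ctsk by 0.03 ± 0.07. Mrc1 is itself 1 of the 10 macrophage markers, whose mean deviation was 0.10 in noodle rats (-0.21 to 0.32) and -0.10 in control rats (-0.35 to 0.21), and the part of these cells in its difference was not tested. In folding and modification 1 of 4 was higher and 3 lower, with the collagen chaperone Serpinh1 at 0.09 ± 0.11 (-0.12 with the 3-prime to 5-prime covariate), Plod2 at -0.07 ± 0.05, P3h3 at -0.13 ± 0.13 and P4ha3 at -0.26 ± 0.33. Without control animal 14, P3h3 came to -0.01 and P4ha3 to -0.03. Among the matrix proteins that bind fibrils, 6 of 16 were higher and 10 lower, with Fmod at -0.45 ± 0.36, Bgn at -0.26 ± 0.17, Fbln2 at -0.21 ± 0.19 and Thbs2 at -0.20 ± 0.13. Without control animal 14, Fmod was -0.25, Bgn -0.14 and Fbln2 -0.10. The 7 mesothelial markers had a mean deviation of -0.15 in noodle rats and 0.15 in control rats. Fmod and this mean were both lowest in noodle animal 7 and control animal 2 and both highest in control animals 11 and 14, and the part of these cells in the Fmod difference was not tested. Among collagen receptors, Itga11 differed by -0.08 ± 0.09 (-0.01 without control animal 14), Ddr2 by -0.06 ± 0.10 and Itga1 by 0.22 ± 0.38. Signs for Ctsk, Ddr2 and Itga1 turned when single animals were left out.

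Across animals, these genes were set against Col1a1 and Col4a2. Of 128 relations, 64 with each gene, 115 were positive, and 8 had an adjusted p under 0.05, 7 with Col1a1 and 1 with Col4a2, all of them positive, and whether the 2 genes differ in this was not tested. Positive r values made up 90.6% of those with Col1a1 and 89.1% of those with Col4a2, against 63.2% and 66.5% over all 1623 other variable genes. An r of at least 0.8 was reached by 14.1% of the list genes with Col1a1 and 4.69% with Col4a2, against 3.14% and 2.03% of the same 1623 genes. The 7 were Fn1, the fibronectin gene, at r = 0.946, Itga11, the alpha chain of a fibril-binding integrin, at 0.918, Pcolce, an enhancer of procollagen trimming, at 0.913, Col4a5 at 0.858, Bmp1 at 0.853, the fibrillin gene Fbn1 at 0.838 and P3h3 at 0.815. Of these only Itga11 also passed for rho (rho = 0.964, permutation p = 7e-05, adjusted p = 0.00896). Without control animal 14 and noodle animal 4 the 7 values of r lay between 0.521 (P3h3) and 0.865 (Fn1). The relation with Col4a2 was that of Col4a5 (r = 0.881, rho = 0.636, permutation p = 0.00172 and 0.055, adjusted p = 0.0405 for r), and r was 0.55 without control animal 14 and noodle animal 1.

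The genes most like 3 of the collagens were sought among 1623 other genes whose brightest probe set was variable, by Pearson's r over the 10 animals with each diet mean taken out. For Col1a1 they were Antxr2 (r = 0.953, rho = 0.988), Fn1 (0.945 and 0.952), Plat (0.945 and 0.952), which encodes tissue plasminogen activator, Sptan1 (0.918 and 0.83) and Adamtsl4 (0.917 and 0.952). For Col4a2, taken because the brightest Col4a1 probe set is flat, they were Tln1 (r = 0.943, rho = 0.842), the talin gene, Aplp1 (0.933 and 0.855), Pcbp2 (0.916 and 0.77), Nphs1 (0.907 and 0.879) and Igfbp3 (0.901 and 0.976). For Col6a3 they were Lum (r = 0.973, rho = 0.915), which encodes the fibril-binding proteoglycan lumican, Nr4a1 (0.932 and 0.915), Fstl1 (0.93 and 0.842), Mfap2 (0.926 and 0.879) and Sult1e1 (0.916 and 0.867). These are the highest of many values and carry no p. With the diet means left in, the r of the named genes lay between 0.587 (Nr4a1) and 0.955 (Lum). Nphs1 and Sult1e1 stood at means of only 5.73 and 5.6, below every array median (6.17 to 6.18). The 3 lists of 5 genes share no gene.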

How the data were processed

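White adipose tissue of 5 noodle and 5 control rats was profiled on 1 array per animal, from 100 ng of total RNA per the labels. The deposited values, 1 for each probe set on each array, were read as log2 because of their range. How the authors corrected background, summarised probes and normalized, and the base of the logarithm, are not stated in any source at hand. The 57 array control probe sets were left out of the tests. Gene symbols come from the platform annotation, and all 10 members matched the current RefSeq gene table by gene identifier. The labels number the animals in one series that alternates between the diets (noodle 1, control 2, noodle 4, control 5 and so on) and say no more of them, so p-values measure the spread between these animals.

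Noodle minus control was fitted with limma 3.58.1 in R 4.3.3 (lmFit, eBayes with a constant prior, two-sided, Benjamini-Hochberg over 31042 probe sets, threshold 0.05). Where a gene had several probe sets, the one with the highest mean stood for it, and for members the brightest variable one. Correlations were tested by permutation in Python 3.11.15 with numpy 2.4.6. In simulated data 200 of 31042 probe sets were changed, drawn from the variable ones, with noise independent between probe sets. There limma found 34% of changes of 0.5 log2 units, 78.7% of those of 1 and 95.9% of those of 2. These shares are averages over variable probe sets and are not those of the collagens, whose SEs differ. The members and lists were chosen with earlier results of these data known. All member probe sets are named, with up to 4 variable genes of smallest p per list and the 5 genes most like Col1a1, Col4a2 and Col6a3. Genes named for their correlation within a list were chosen after their values were seen.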

Additional observations from a re-analysis of the deposited data

Results flagged for a closer look

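Single animals stood apart from the 4 others of their diet group by Dixon's criterion at the 95% level in 10 of 110 groups of 5, where chance alone gives about 5.5. These groups are not independent, because genes vary together and class means contain their own members. The 10 therefore cannot be read as an excess over 5.5. Noodle animal 4 was high in Col6a1, which read 10.9 there and 10.45 to 10.54 in the rest of its diet group, in Col6a2, at 10.2 against 9.71 to 9.80, and in the mean deviation of the type VI genes, at 0.31 against -0.11 to -0.03. The same animal was high in Timp2, at 10.7 against 10.2 to 10.3, and in the mean deviation of markers of smooth muscle and pericytes, with 0.26 there and -0.14 to -0.03 in the rest. Control animal 14 was high in P3h3, at 7.85 against 7.14 to 7.32 in the other controls, in Tgm2, at 10.1 against 9.28 to 9.51, and in Lama2, at 9.06 against 8.60 to 8.72. Control animal 5 was low in Col14a1, at 9.63 against 9.99 to 10.04, and noodle animal 10 was low in Serpinh1, at 10.96 while the rest of its group lay between 11.23 and 11.31. The part of any cause was not tested.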

How the results depend on the processing

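No collagen difference passed an adjusted p of 0.05 under any alternative run. Over all probe sets limma called 0, with 0 to 1 when single animals were left out (1 without control animal 14) and 1 without noodle animal 4 and control animal 14, a pair chosen after seeing the data. The alternatives run for the 3 class differences moved them by less than the SD between animals, but turned the sign of the fibrillar and type VI values (-0.117 to 0.0313 and -0.0814 to 0.0482 with single animals left out). Of the 31 genes named from the lists, 25 moved by over 1.5 times with the 3-prime to 5-prime covariate and 20 without control animal 14. Small differences changed sign, and the cause was not tested. With array weights the second Col1a1 and Col5a1 probe sets came to -0.0593 and -0.0389. With the 3-prime to 5-prime covariate they came to -0.0419 and -0.0707, with Col3a1 at -0.00321, Serpinh1 at -0.12, Ctsk at -0.0227 and Itga1 at -0.0484. Without noodle animal 4 and control animal 14 they came to -0.047 and -0.0285, with Col15a1 at -0.00907, Tgm2 at 0.0177 and Lama4 at -0.00325. With single animals left out, the brighter and second probe sets ranged from -0.11 to 0.0748 and from -0.129 to 0.0627 for Col1a2, and from -0.0972 to 0.0281 and from -0.0563 to 0.0886 for Col5a1. The second of Col1a1 ranged from -0.0874 to 0.139, the second of Col5a2 from -0.0451 to 0.0375, and Col6a1 from -0.122 to 0.0235. Ctsk ranged from -0.0224 to 0.0659, Ddr2 from -0.109 to 0.00594 and Itga1 from -0.0425 to 0.442. Of the median correlations, fibrillar pairs moved to 0.873 with the mean of all variable probe sets of a gene, and fibrillar with type IV to 0.552 with the dimmest variable probe set, chosen after seeing the data. Without noodle animal 4 and control animal 14, fibrillar with type VI moved to 0.628, the type IV pair to 0.731 and type IV with type VI to 0.506. The diet groups share no animal number and no label says which rats were fed as pairs. With adjacent numbers taken as a replicate block, an assumption added after seeing the data, limma called 0 probe sets and 0 of the collagens. Every difference kept its value, as it must when each block holds 1 animal of each diet. The deviations of adjacent animals from their group means correlated between -0.402 and 0.292. Animals that are not adjacent were not compared, so these values cannot say whether adjacent animals were fed as pairs. With 5 animals per diet the number of arrays limits the precision. In simulated data 34% of differences of 0.5 log2 units were found, as an average over variable probe sets and not for the collagens.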
